A study of Homo sapiens with 8 samples.

Results

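NEAT1 and MALAT1, the 2 abundant long noncoding RNAs of nuclear bodies, were followed across LM3 and HepG2 cells treated with JQ1 or with vehicle. They were the 2 loci, of 15469 with values, whose Ensembl IDs map to these genes. The groups were LM3 with JQ1, LM3 with vehicle, HepG2 with JQ1 and HepG2 with vehicle, each with 2 libraries, 8 in all. The vehicle was DMSO, which the labels name for the vehicle groups. LM3 and HepG2 are established human liver cancer cell lines. The labels call both hepatocellular carcinoma lines, although HepG2 is generally traced to a hepatoblastoma, and in the labels neither carries a genetic change made for the study. JQ1 is a BET inhibitor, a compound that competes with acetylated histones for the bromodomains of BET proteins, and the study's question was which long noncoding RNAs respond to it. The labels give neither dose nor duration, and they do not say whether the 2 libraries of a group came from separate cultures, so p-values measure only how far these libraries spread, and that spread may be technical.

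NEAT1 is the scaffold of paraspeckles, nuclear bodies that form around its long transcript, while its short transcript is made from the same promoter and ends early at a polyadenylation site. MALAT1 is retained in nuclear speckles, which store splicing factors, and is among the most abundant long noncoding RNAs of many cell types, including liver cancer cells. Both are neighbours in the genome, and the long ends of both are made in the same unusual way. RNase P cuts the RNA in front of a tRNA-like element, and the new end, which carries no poly(A) tail, is stabilised by a triple helix between an A-rich tract at the very end and U-rich motifs upstream of it. Libraries made from RNA depleted of ribosomal RNA, as here, do not depend on a poly(A) tail.

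NEAT1 (ENSG00000245532) lay at chr11:65422774-65445540 on the plus strand of GRCh38 and spanned 22767 bp. MALAT1 (ENSG00000251562) lay at chr11:65497688-65506516 on the same strand, spanned 8829 bp and was separated from NEAT1 by 52147 bp. Both are annotated as lincRNAs in GENCODE release 29, with the same starts and ends as in the deposited tables. GENCODE 29 lists 8 transcripts of NEAT1, of which the longest is 22743 bases in 1 exon, and 17 of MALAT1, of which the longest is 8708 bases in 1 exon. The tables hold 1 row for each gene, so the long and the short NEAT1 transcript could not be separated.

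The ends of the long transcripts are printed because they are what the genes share beyond their location. The sequences below run 5′ to 3′ on the plus strand of GRCh38, as GENCODE 29 transcripts give them. In the last 100 bases before the RNase P cut, at chr11:65506017-65506116 for MALAT1 and chr11:65445441-65445540 for NEAT1, capitals mark the U-rich motifs TTTCTTTT and TTTTGCTTTT and the A-rich end AAAAAGCAAAA, which are the last bases that the 2 ends share.
MALAT1 before the cut: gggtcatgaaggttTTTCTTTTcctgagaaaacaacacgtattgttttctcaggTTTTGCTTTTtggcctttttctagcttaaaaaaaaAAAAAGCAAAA
NEAT1 before the cut: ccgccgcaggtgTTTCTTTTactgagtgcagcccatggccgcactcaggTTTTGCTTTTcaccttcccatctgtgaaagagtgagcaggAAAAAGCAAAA
The tRNA-like elements that follow, named mascRNA in MALAT1 and menRNA in NEAT1, lie at chr11:65506117-65506173 and chr11:65445541-65445598. Capitals mark the letters GGTTCNANTCC, in which N stands where the elements differ, the form of the internal promoter box and T-loop of tRNA genes.
MALAT1 element: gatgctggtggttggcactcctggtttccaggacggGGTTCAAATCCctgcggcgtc
NEAT1 element: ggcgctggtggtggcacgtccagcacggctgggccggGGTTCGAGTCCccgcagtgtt

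Both ends carry all 3 marked motifs in the same order. AAAAAGCAAAA and TTTTGCTTTT were read from these same ends, so their presence in both was given and is no test. The shares that follow only describe how common such letters are, and do not measure how alike the ends are. Among the last 100 bases of 203677 GENCODE 29 transcripts, searched on the RNA strand alone, AAAAAGCAAAA was found in 0.0462%, TTTTGCTTTT in 0.0859%, TTTCTTTT in 1.25% and GGTTCNANTCC in 0.0231%. Transcripts under 100 bases, the tRNA-like elements among them, were left out, so the last share is no background for such elements. The elements, 57 bases in MALAT1 and 58 bases in NEAT1, aligned over 59 columns with 40 identical bases (67.8%) and 3 gaps. The NEAT1 locus in the tables ends at the base before its element. The MALAT1 locus includes its element and ends further downstream, at base 400 counted from the element's first base as base 1. A match of letters describes the sequence and does not show that a library captured these ends.

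The libraries differed somewhat in summed level and in the number of loci detected. Summed FPKM (fragments scaled by locus length and library total, as deposited) lay between 29369 and 35742, and 11230 to 12332 loci were above 0. In HepG2 the sums were 31309 and 32765 with JQ1, both above the 30699 and 29369 with vehicle. In LM3 they were 34148 and 34771 with JQ1, against 34066 and 35742 with vehicle. Every LM3 sum was above every HepG2 sum. The sources used here give no read numbers, so counting error is unknown. Ribosomal RNA and mitochondrial loci took 24.1% and 26.2% of the summed FPKM in the LM3 JQ1 libraries, against 21.2% and 22.1% in the LM3 vehicle libraries. In HepG2 they took 18.0% and 19.1% with JQ1, against 16.1% and 16.8% with vehicle. Of the cell type markers, none of the 5 coding hepatocyte genes had values. H19, an imprinted RNA of fetal liver and liver cancer, averaged 329 ± 27.1 FPKM with JQ1 and 329 ± 26.0 FPKM with vehicle in LM3, and 2168 ± 94.1 FPKM with JQ1 and 2143 ± 149 FPKM with vehicle in HepG2 (SD, n = 2 each). HULC, named for its high level in liver cancer, stayed below 1 FPKM in every group mean. FENDRR, a mesenchymal RNA, fell to 1.04 FPKM with JQ1, against 3.40 FPKM with vehicle, in LM3 (limma adjusted p = 0.00565), and to 2.80 FPKM, against 8.71 FPKM, in HepG2 (limma adjusted p = 0.00513). LINC00261, listed for endoderm, averaged 0 FPKM with JQ1 and 0.03 FPKM with vehicle in LM3, and 0.065 and 0.56 FPKM in HepG2. LINC01094, listed for leukocytes, averaged 0.035 to 0.16 FPKM in the 4 groups. Both were too low to be tested, and MIR155HG, also listed for leukocytes, had no values.

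NEAT1 was higher with JQ1 in both lines, by 1.57-fold in LM3 and 1.98-fold in HepG2. MALAT1 was 1.27-fold higher with JQ1 in LM3, just past the threshold. That call was lost under 10 of 16 alternative settings, among them each that left out a library, where no locus was called. In HepG2 its 1.07-fold difference did not pass. The test of whether the lines responded differently passed for neither gene after adjustment. In these bulk samples, a change in the share of cells that make an RNA and a change in RNA per cell cannot be told apart.

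In LM3, NEAT1 had 186 and 180.0 FPKM in the JQ1 libraries, against 115 and 119 FPKM in the vehicle libraries. Both JQ1 libraries lay above both vehicle libraries, with a gap many times wider than the distance between libraries of a group. Groups that did not overlap, in either direction, were common, at 66.7% of loci tested in LM3. The means were 183 ± 4.07 FPKM with JQ1 and 117 ± 2.67 FPKM with vehicle (SD, n = 2 each). The log2 fold change of JQ1 over vehicle was 0.64 (SE 0.077, 95% confidence interval 0.44 to 0.85) on the log2(FPKM + 0.5) scale, with an adjusted p of 0.0122 in limma with Benjamini-Hochberg adjustment over 6474 loci. Among those loci 1511 (23.3%) passed the threshold of 0.05, and 513 of them (7.92% of the loci tested) were higher with JQ1. The other 998 (15.4%) were lower, a split of calls that depended on scaling: 34.0% of calls were higher as deposited, 47.6% with libraries centred on their median and 49.4% after quantile normalization. NEAT1's fold change was larger than that of most loci, with 5.36% of the loci tested above it.

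In HepG2, NEAT1 had 169.6 and 194 FPKM in the JQ1 libraries, against 95.2 and 88.8 FPKM in the vehicle libraries. The groups did not overlap, as for 66.4% of loci tested in HepG2. The JQ1 libraries differed from each other more than any other pair did. The means were 182 ± 17.3 FPKM with JQ1 and 92.0 ± 4.53 FPKM with vehicle (SD, n = 2 each). The log2 fold change was 0.98 (SE 0.098, 95% confidence interval 0.72 to 1.23), with a limma adjusted p of 0.00864 over 5906 loci. In this fit 1480 loci (25.1%) passed and 640 (10.8%) were higher with JQ1. Of the calls, 43.2% were higher as deposited, 50.7% with centred libraries and 34.7% with libraries rescaled to the sum outside both genes. A larger fold change than that of NEAT1 was found for 1.81% of the loci. NEAT1 stood at a similar level in the JQ1 libraries of the 2 lines, and at a higher level in the LM3 vehicle libraries than in the HepG2 vehicle libraries. The lines' levels come from separate tables that may have been normalized separately, so they were not tested against each other.

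MALAT1 in LM3 had 1472 and 1341 FPKM with JQ1, against 1117 and 1104 FPKM with vehicle. Every JQ1 library again lay above every vehicle library, where groups did not overlap for 66.7% of loci tested in LM3. The JQ1 pair was the more spread. The means were 1406 ± 92.5 FPKM with JQ1 and 1110 ± 9.12 FPKM with vehicle (SD, n = 2 each). The log2 fold change was 0.34 (SE 0.082, 95% confidence interval 0.12 to 0.56), with a limma adjusted p of 0.0491. Of the loci tested in LM3, 16.5% had a larger fold change.

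MALAT1 in HepG2 had 1798 and 1722 FPKM with JQ1, against 1700.2 and 1593 FPKM with vehicle. The groups did not overlap, but the lower JQ1 library and the higher vehicle library were nearly level, and groups that did not overlap were common in this table (66.4% of loci tested in HepG2, 66.7% in LM3). The means were 1760 ± 53.7 FPKM with JQ1 and 1647 ± 75.7 FPKM with vehicle (SD, n = 2 each). The log2 fold change was 0.096 (SE 0.082, 95% confidence interval −0.12 to 0.31), with a limma adjusted p of 0.436. The interval takes in both no difference and a difference close to that seen in LM3. After quantile normalization the sign turned, to −0.11 (limma adjusted p = 0.518, where the 16 alternatives ranged from 0.190 to 0.921).

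**Figure D1:**
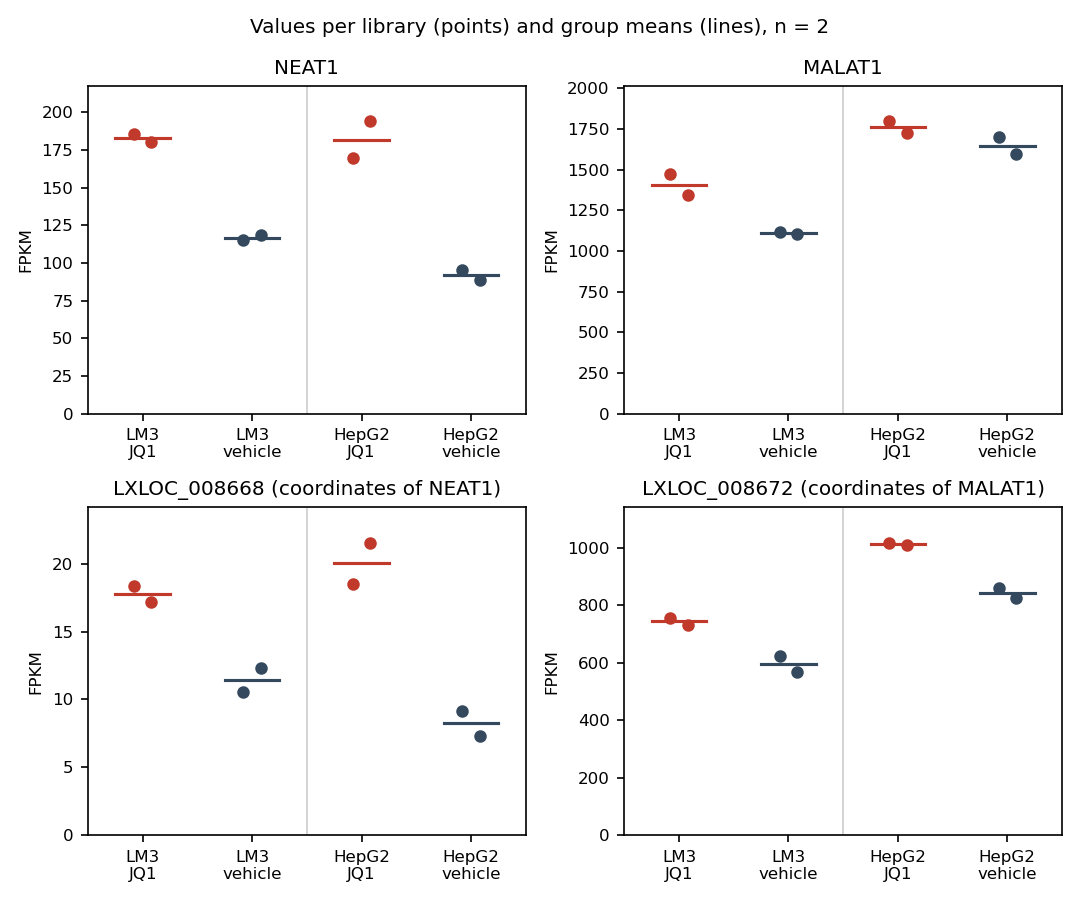
FPKM of NEAT1, MALAT1 and the 2 LXLOC loci with their coordinates in each library (points) with group means (lines), n = 2 libraries per group, each panel on its own axis from 0. NEAT1 sits near 180 FPKM in the JQ1 groups of both lines and near 117 and 92.0 FPKM in the LM3 and HepG2 vehicle groups, while the MALAT1 groups lie closer together.

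Both genes are far more abundant than most loci, so the calls were also read against abundant loci alone. Of 81 loci that averaged 50 FPKM or more in LM3, 29 (35.8%) passed, 16 (19.8%) higher and 13 (16.0%) lower with JQ1. Of 65 such loci in HepG2, 20 (30.8%) passed, 10 (15.4%) in each direction. The median log2 fold change over all loci tested was −0.084 in LM3 and −0.0056 in HepG2, and over the abundant loci 0.043 in LM3 and 0.078 in HepG2. NEAT1 in both lines and MALAT1 in LM3 were thus among a minority of abundant loci that were called higher, and a call as such was not rare at this level.

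**Figure D2:**
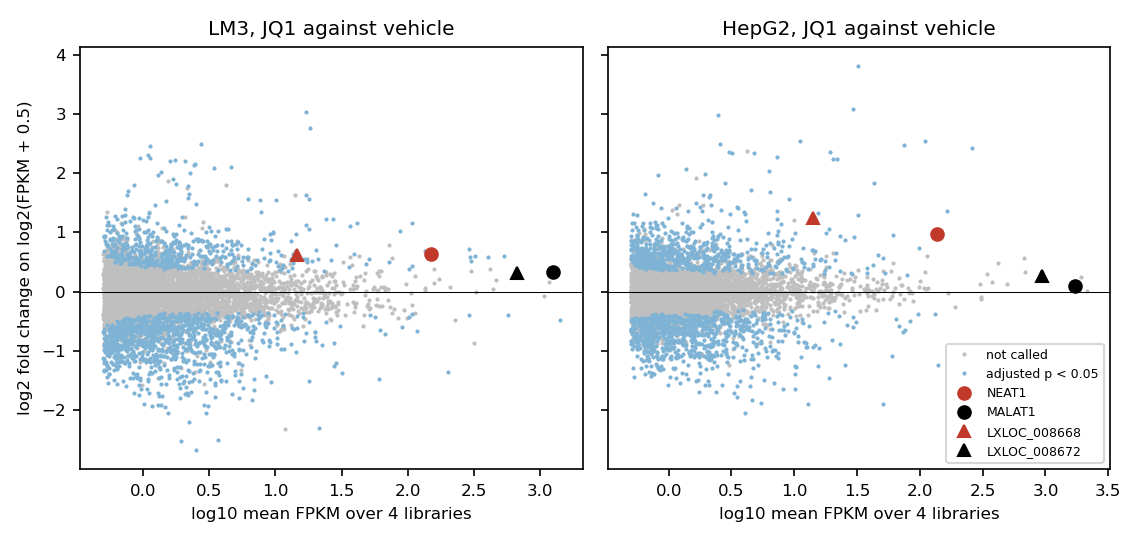
Log2 fold change of JQ1 over vehicle against log10 mean FPKM over the line's 4 libraries for every locus tested, in LM3 and HepG2, with blue for loci past the limma threshold, large circles for NEAT1 and MALAT1 and triangles for the LXLOC loci with their coordinates. NEAT1 stands at 0.64 in LM3 and 0.98 in HepG2, and MALAT1 at 0.34 and 0.096, near the right edge of each plot.

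NEAT1 stood higher in the order of Ensembl loci with JQ1, while MALAT1 was already at or next to the top with vehicle. NEAT1 ranked 7 and 6 by FPKM in the LM3 JQ1 libraries, against 9 and 10 in the LM3 vehicle libraries. In HepG2 it ranked 7 in both JQ1 libraries, against 10 and 12 in the vehicle libraries. MALAT1 ranked 1 in every LM3 library and 2 in every HepG2 library, where H19 ranked above it. Among all loci, LXLOC loci included, MALAT1 ranked 1 in both LM3 JQ1 libraries, against 3 and 2 in the LM3 vehicle libraries, and 3 in both HepG2 JQ1 libraries, against 3 and 2 in the HepG2 vehicle libraries. MALAT1 alone took 4.31% and 3.86% of the summed FPKM of the LM3 JQ1 libraries, against 3.28% and 3.09% in the LM3 vehicle libraries. Its share in HepG2 was 5.74% and 5.26% with JQ1, against 5.54% and 5.42% with vehicle, and there the groups overlapped.

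The difference between the lines was tested directly over all 8 libraries. For NEAT1, the response in LM3 minus that in HepG2 was −0.33 on the log2 scale (SE 0.13, 95% confidence interval −0.63 to −0.03), with an unadjusted limma p of 0.0348 and an adjusted p of 0.381 over 5035 loci. For MALAT1 it was 0.24 (SE 0.12, 95% confidence interval −0.034 to 0.52), with an unadjusted limma p of 0.0757 and an adjusted p of 0.477. In that fit 11 loci (0.218%) passed, 10 (0.199%) with the lower response in LM3 and 1 (0.0199%) with the higher, and neither gene was among them. The NEAT1 response was the smaller in LM3 and the MALAT1 response the larger, but a difference between lines was not shown for either.

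The ratio of the members within a library does not depend on how that library was scaled. NEAT1 FPKM stood at 12.6% and 13.4% of MALAT1 FPKM in the LM3 JQ1 libraries, against 10.3% and 10.8% in the LM3 vehicle libraries. In HepG2 it stood at 9.43% and 11.3% with JQ1, against 5.60% and 5.57% with vehicle. In each line both JQ1 libraries had a higher ratio than both vehicle libraries. The means were 13.0% ± 0.567 and 10.5% ± 0.327 in LM3 and 10.4% ± 1.30 and 5.59% ± 0.018 in HepG2, JQ1 and vehicle in that order (SD, n = 2 each). On the log2 scale the ratio was 0.31 higher with JQ1 in LM3 and 0.88 higher in HepG2. These are descriptions without a test. In these libraries NEAT1 stood higher relative to MALAT1 with JQ1, which does not mean that MALAT1 was constant.

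**Figure D3:**
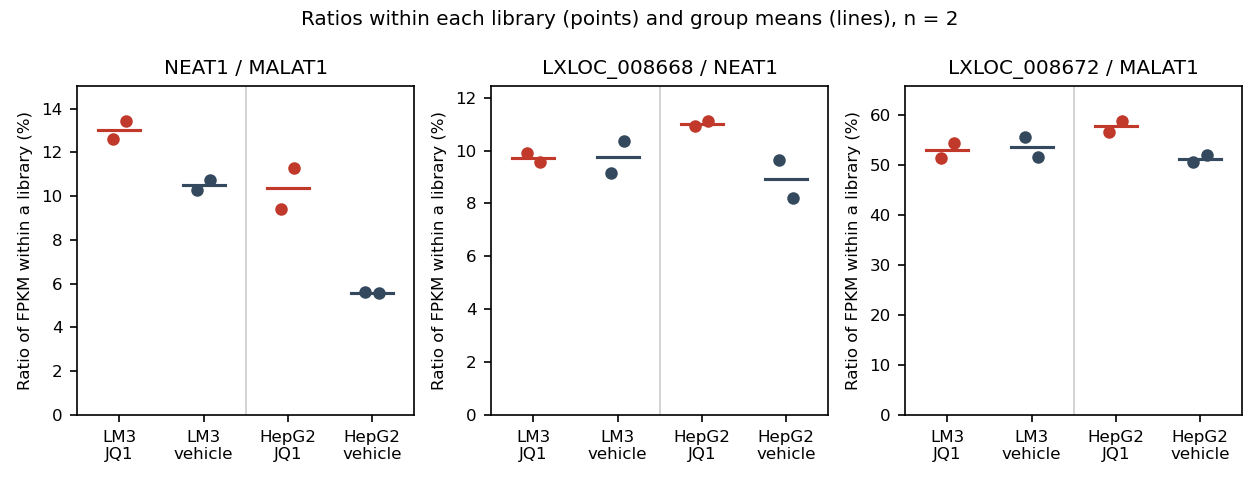
Ratios of FPKM in percent within each library (points) with group means (lines), n = 2 libraries per group. NEAT1 over MALAT1 is higher with JQ1 in both lines, at 13.0% and 10.5% in LM3 and 10.4% and 5.59% in HepG2 for JQ1 and vehicle, and LXLOC_008672 over MALAT1 is also higher with JQ1 in HepG2, at 57.7% and 51.3%.

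Each gene shares its exact start, end and strand with another locus in the tables, LXLOC_008668 for NEAT1 and LXLOC_008672 for MALAT1. The origin of the LXLOC loci is not given in the sources used here, and reads may have been split between the 2 rows or counted in both. Their values therefore are no independent measurement. LXLOC_008668 had 18.4 and 17.2 FPKM in LM3 with JQ1, against 10.5 and 12.3 FPKM with vehicle. In HepG2 it had 18.5 and 21.6 FPKM with JQ1, against 9.18 and 7.28 FPKM with vehicle. It was higher with JQ1 in both lines, with log2 fold changes of 0.62 (SE 0.11, limma adjusted p = 0.0256) in LM3 and 1.24 (SE 0.14, limma adjusted p = 0.0105) in HepG2.

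LXLOC_008672 was the far more abundant of the pair. It had 757 and 730.25 FPKM in LM3 with JQ1, against 622 and 568 FPKM with vehicle, and 1019 and 1012 FPKM in HepG2 with JQ1, against 861 and 827 FPKM with vehicle. Its groups did not overlap in either line, as for 66.7% of loci tested in LM3 and 66.4% in HepG2. Neither log2 fold change passed, with 0.32 (SE 0.084, limma adjusted p = 0.0589) in LM3 and 0.27 (SE 0.074, limma adjusted p = 0.0627) in HepG2. LXLOC_008668 stood at 8.20% to 11.1% of NEAT1 and LXLOC_008672 at 50.6% to 58.8% of MALAT1 over the 8 libraries. In LM3, LXLOC_008672 stood at 51.5% and 54.5% of MALAT1 with JQ1, against 55.7% and 51.5% with vehicle, and the groups overlapped. In HepG2 it stood at 56.7% and 58.8% with JQ1, against 50.6% and 51.9% with vehicle, and the JQ1 libraries lay above. The 2 rows of MALAT1 thus did not keep 1 ratio in HepG2, where the Ensembl row had a log2 fold change of 0.096 and the LXLOC row one of 0.27. Which row holds which reads was not tested.

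Summing the 2 rows of each gene, a step chosen after the values were seen, left the calls as they were. Summed NEAT1 gave 0.64 in LM3 (limma adjusted p = 0.0121) and 1.00 in HepG2 (limma adjusted p = 0.00828). Summed MALAT1 gave 0.33 in LM3 (limma adjusted p = 0.0458) and 0.16 in HepG2 (limma adjusted p = 0.247). Over the alternatives tried, the adjusted p ranged from 0.00418 to 0.128 for NEAT1 in LM3, 0.00135 to 0.0884 for NEAT1 in HepG2 and 0.0162 to 0.257 for MALAT1 in LM3.

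The calls rest on few libraries. The NEAT1 call in LM3 was lost without any 1 of the 4 libraries, with log2 fold changes between 0.62 and 0.67. In HepG2 it was lost without JQ1 replicate 1 (1.07) or JQ1 replicate 2 (0.88), and was kept without either vehicle library. MALAT1 in LM3 lost its call without any 1 library (0.27 to 0.41). In each of these fits that lost a call, no locus at all was called, so the loss is not particular to NEAT1 or MALAT1. MALAT1 in LM3 also lost its call under settings that kept all libraries. Among the other settings, it lost the call with a pseudocount of 1 FPKM (0.34, limma adjusted p = 0.0537), with no filter on low values (0.34, 0.0921), with quantile normalization (0.37, 0.0678), with libraries rescaled to the sum outside both genes and the loci that overlap them (0.38, 0.0629) and without trend and robust fitting (0.34, 0.0809). With libraries rescaled without the ribosomal RNA and mitochondrial loci, whose share was higher with JQ1, NEAT1 gave 0.73 in LM3 (limma adjusted p = 0.0106) and 0.92 in HepG2 (limma adjusted p = 0.00757), and MALAT1 gave 0.42 in LM3 (limma adjusted p = 0.0307) and 0.039 in HepG2 (limma adjusted p = 0.750).

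**Figure D4:**
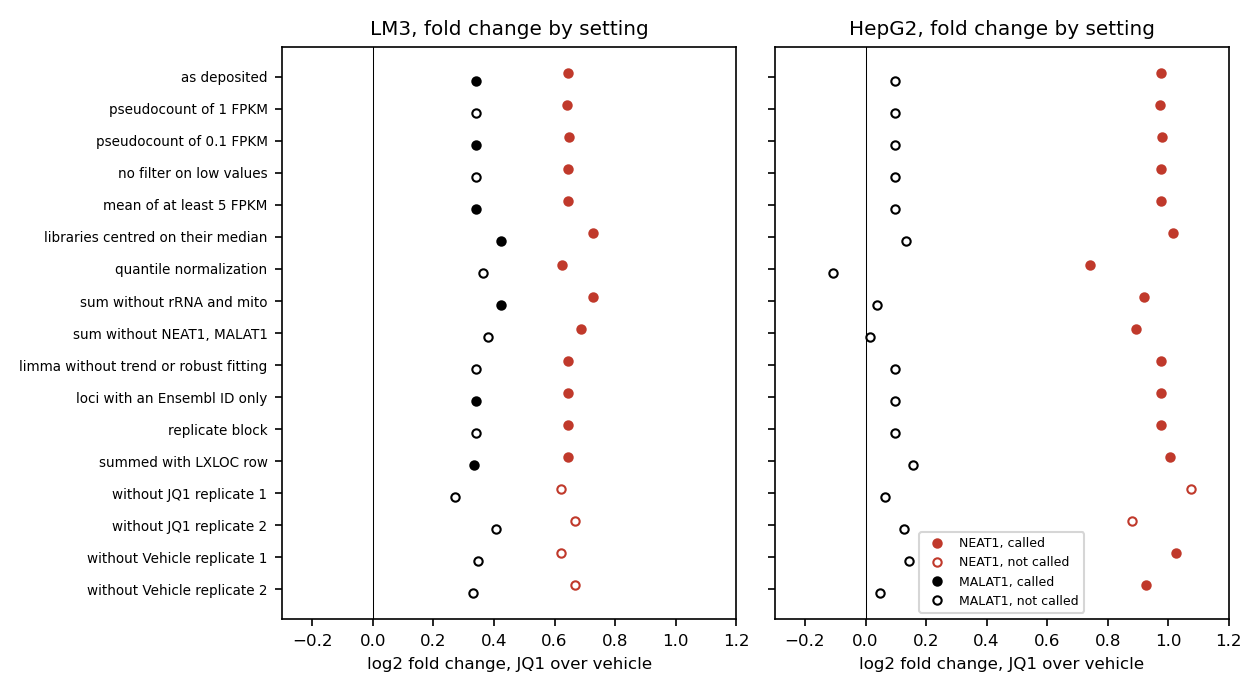
Log2 fold change of JQ1 over vehicle for NEAT1 and MALAT1 under each processing setting, in LM3 and HepG2, with filled points for values past the limma threshold and open points for the others. NEAT1 is above 0 throughout, from 0.62 to 0.73 in LM3 and 0.74 to 1.07 in HepG2, and MALAT1 in HepG2 falls below 0 after quantile normalization (−0.11).

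Among the loci around the 2 genes, the row with NEAT1's own coordinates was called higher with JQ1 in both lines, and a different minus-strand locus was called lower in each. Within 200 kb of the stretch from NEAT1 to MALAT1 the tables hold 16 other loci with values, 9 of them over 1 FPKM in at least 1 group mean. The 16 include the LXLOC rows with the coordinates of NEAT1 and MALAT1. In LM3, 1 of the 16 was called higher (LXLOC_008668), 1 lower (LXLOC_010328), 9 were not called and 5 were too low to be tested. In HepG2, 1 was called higher (LXLOC_008668), 1 lower (LXLOC_010327), 7 were not called and 7 were too low to be tested. Over all loci tested, 7.92% were higher and 15.4% lower in LM3, and 10.8% higher and 14.2% lower in HepG2. The 1 lower call in each line, among so few loci, is near the background. LXLOC_008668, the only locus called higher, is no measurement independent of NEAT1, so no separate neighbour was called higher in either line. LXLOC_010327 and LXLOC_010328 are minus-strand loci between NEAT1 and MALAT1. LXLOC_010328 had 1.11 and 1.27 FPKM in LM3 with JQ1, against 1.86 and 2.18 FPKM with vehicle (log2 fold change −0.58, SE 0.11, limma adjusted p = 0.0332). In HepG2 it had 1.26 and 1.48 FPKM with JQ1, against 1.87 and 1.93 FPKM with vehicle (−0.36, SE 0.10, limma adjusted p = 0.0635). LXLOC_010327 had 0.50 FPKM in both HepG2 JQ1 libraries, against 0.820 and 1.06 FPKM with vehicle (−0.52, SE 0.12, limma adjusted p = 0.0409).

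LXLOC_010326, a minus-strand locus at chr11:65410840-65422807, overlaps the first 34 bases of NEAT1, at chr11:65422774-65422807. The shared stretch, in the direction of NEAT1, is printed because it is where the divergent loci meet.
NEAT1 start: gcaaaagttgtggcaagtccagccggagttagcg
LXLOC_010326 had 0.530 and 0.600 FPKM in LM3 with JQ1, against 0.840 and 0.870 FPKM with vehicle (log2 fold change −0.35, SE 0.11, limma adjusted p = 0.0940). In HepG2 it had 1.05 and 1.03 FPKM with JQ1, against 0.730 and 0.740 FPKM with vehicle (0.32, SE 0.087, limma adjusted p = 0.0603). The JQ1 libraries lay below the vehicle libraries in LM3 and above them in HepG2, and the difference of −0.67 between the lines did not pass after adjustment (limma adjusted p = 0.132). Whether reads were counted by strand is not given in the sources used here, so reads of NEAT1 and of an antisense locus may not have been told apart.

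On the far side, LXLOC_008673 begins 266 bases beyond the MALAT1 locus on the same strand. It had 3.61 and 3.03 FPKM in LM3 with JQ1, against 2.97 and 2.63 FPKM with vehicle (0.21, SE 0.12, limma adjusted p = 0.265), and 2.70 and 2.47 FPKM in HepG2 with JQ1, against 2.08 and 2.63 FPKM with vehicle (0.12, SE 0.13, limma adjusted p = 0.538). ZNRD2-DT, the divergent transcript of ZNRD2, had 1.94 and 1.83 FPKM in LM3 with JQ1, against 1.46 and 1.33 FPKM with vehicle (0.33, SE 0.094, limma adjusted p = 0.0702). In HepG2 it had 1.28 and 1.18 FPKM with JQ1, against 0.870 and 0.810 FPKM with vehicle (0.37, SE 0.094, limma adjusted p = 0.0516). Its groups did not overlap in either line, as for 66.7% of loci tested in LM3 and 66.4% in HepG2, and neither value passed. LXLOC_010333 averaged 1.39 FPKM with JQ1 and 1.52 FPKM with vehicle in LM3, and 1.01 and 0.725 FPKM in HepG2 in the same order. LXLOC_010324 and ENSG00000287917, which overlap each other, averaged 1.56 and 0.755 FPKM with JQ1 in LM3, against 1.62 and 1.06 FPKM with vehicle, and none of these 3 loci was called. AP000769.2, antisense within MALAT1, averaged 0.105 to 0.130 FPKM in the 4 groups and was not tested.

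**Figure D5:**
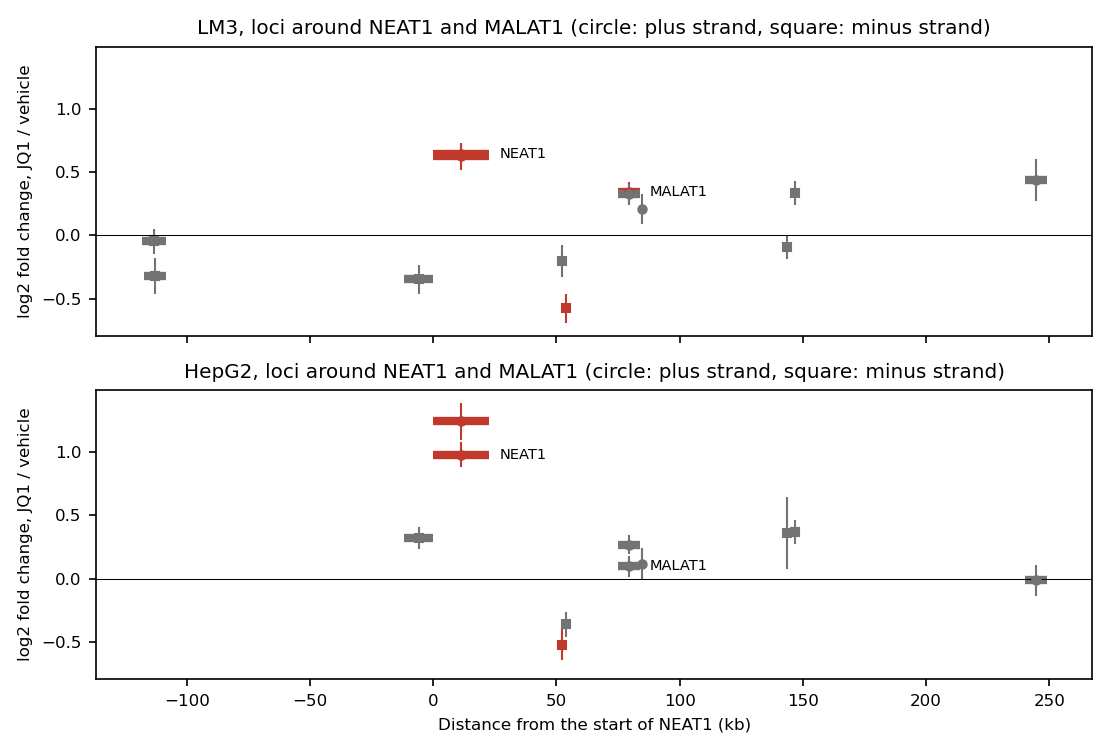
Log2 fold change of JQ1 over vehicle (error bars, SE) for tested loci around NEAT1 and MALAT1 in LM3 and HepG2, against distance from the NEAT1 start, with horizontal bars for the length of each locus, circles for the plus strand, squares for the minus strand and red for loci past the limma threshold. NEAT1 stands at 0.64 in LM3 and 0.98 in HepG2, above all loci around it except the row with its own coordinates in HepG2 (1.24), and MALAT1 at 0.34 and 0.096.

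Other lncRNAs listed for roles in the nucleus fell with JQ1 where they were called, except SNHG1, which rose in LM3. The list of 32 such RNAs included NEAT1 and MALAT1, and 28 had values. It also held NORAD, SNHG1 and OIP5-AS1, which are known largely from the cytoplasm. In LM3, 19 members besides NEAT1 and MALAT1 were tested, of which 1 rose, 3 fell and 15 did not pass, where 7.92% of all loci tested were higher and 15.4% lower. Their median log2 fold change was −0.20 beside −0.084 over all loci tested. In HepG2, 16 others were tested, of which 2 fell and 14 did not pass, where 10.8% of all loci tested were higher and 14.2% lower. Their median was −0.13 beside −0.0056. In both lines the counts are near the background.

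PVT1, a MYC-neighbouring lncRNA, fell in both lines. It averaged 50.6 ± 0.205 FPKM with JQ1 and 83.0 ± 1.65 FPKM with vehicle in LM3 (log2 fold change −0.71, limma adjusted p = 0.0110), and 56.5 ± 2.03 FPKM with JQ1 and 91.1 ± 1.97 FPKM with vehicle in HepG2 (−0.68, limma adjusted p = 0.00873; SD, n = 2 each). FIRRE, a chromatin-bound RNA of the X chromosome, fell in HepG2, to 14.1 FPKM with JQ1, against 20.3 FPKM with vehicle (−0.51, limma adjusted p = 0.0146), while in LM3 it averaged 18.7 and 21.1 FPKM in the same order (−0.17, limma adjusted p = 0.203). In LM3, HOTAIRM1, a transcript of the HOXA cluster, fell to 10.4 FPKM with JQ1, against 16.2 FPKM with vehicle (−0.62, limma adjusted p = 0.0145). NKILA, an RNA known to restrain NF-kappaB signalling, fell in LM3 to 0.555 FPKM with JQ1, against 1.15 FPKM with vehicle (−0.64, limma adjusted p = 0.0257). SNHG1, a host of small nucleolar RNAs, rose in LM3 to 124 FPKM with JQ1, against 91.7 FPKM with vehicle (0.43, limma adjusted p = 0.0283).

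TUG1, KCNQ1OT1 and OIP5-AS1 were not called in either line. Of 16 small structural RNAs, RMRP and TERC had values, and neither passed in either line. RMRP, the RNA of RNase MRP, averaged 149 ± 6.70 FPKM with JQ1 and 168 ± 142 FPKM with vehicle in LM3, and 378 ± 38.9 FPKM with JQ1 and 311 ± 62.8 FPKM with vehicle in HepG2 (SD, n = 2 each). TERC, the telomerase RNA, averaged 18.97 ± 0.0283 FPKM with JQ1 and 20.79 ± 1.34 FPKM with vehicle in LM3. In HepG2 it averaged 44.8 ± 4.01 FPKM with JQ1 and 44.8 ± 16.5 FPKM with vehicle (SD, n = 2 each). None of the 15 genes for paraspeckle and speckle proteins, such as SFPQ and NONO, had values, so the protein side of these bodies is not described here.

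The loci most like each gene were sought among 907 named Ensembl loci, by the root mean square difference of log2(FPKM + 0.5), centred on each line's mean, over the 8 libraries. For NEAT1 they were LINC00310 (0.0590), STAG3L5P-PVRIG2P-PILRB (0.0864), AL162458.1 (0.0887), AL359921.2 (0.0896) and AL365436.2 (0.101), where the median difference from NEAT1 over the 907 loci was 0.482. LINC00310, on chromosome 21, had log2 fold changes of 0.64 in LM3 and 1.01 in HepG2. These are close to those of NEAT1 because the locus was chosen for likeness over the same libraries. For MALAT1 they were LINC00938 (0.0558), TTC28-AS1 (0.0560), HCG18 (0.0599), ZFHX3-AS1 (0.0655) and STARD7-AS1 (0.0709), with a median of 0.249. None of these 10 loci lies on chromosome 11. The 2 genes were not each other's nearest: MALAT1 ranked 180 in likeness to NEAT1, and NEAT1 ranked 646 in likeness to MALAT1. Likeness over 8 libraries of 2 lines is a description, and a locus with a small change in both lines is like MALAT1 by that alone.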

How the data were processed

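Total RNA was depleted of ribosomal RNA and sequenced in read pairs, per the labels' protocols. The values are FPKM as deposited by the authors, in 1 table per cell line, per the file headers. The submitters' processing notes list Bowtie 0.12.2, hg19 and mm8 with no role. The coordinates are nevertheless those of GRCh38: 78.4% of 8453 Ensembl loci found in GENCODE 29 had the same chromosome, start and end. The sources used here give neither the counting tool and its strand setting nor the total behind the scale. Of 23161 loci listed, 7692 had no values and were left out.

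JQ1 was compared with vehicle within each line's table with limma 3.58.1 (R 4.3.3), with its trend and robust options. Values entered as log2(FPKM + 0.5), and loci averaging under 0.5 FPKM across the line's 4 libraries were left out. Two-sided p-values were adjusted by Benjamini-Hochberg across every locus tested, at a threshold of 0.05. The scale understates changes of low loci. The difference between lines was an interaction contrast over 8 libraries, for loci passing in both tables. The limma step was run on simulated data in which every locus had the same spread. Spread differs between loci here, so that run does not show how the fit behaves on these values. Loci of 200 to 400 bp were searched for the steps whole fragments leave. Values were scaled by locus span, and the best-fitting of many steps was kept for each library. Between 17.0% and 47.8% of low values per library lay within 0.1 of it, so most did not. Even spread gives 20% for a step fixed beforehand, which is too low a mark for a chosen one. Whole counts were not recovered, so count models were not used and depth is unknown. Python 3.11.15, pandas 2.3.3, NumPy 2.4.6, Biopython 1.88 and matplotlib 3.10.9 served for tables, sequences and plots.

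The genes and lists were chosen with earlier results of these data known. Named loci were both genes, loci within 200 kb with over 1 FPKM in a group (and those called), called list members whose groups did not overlap (up to 6 by p, or 2 where none was called) and the 5 loci most like each gene that averaged 1 FPKM or more in both tables. LXLOC_010327, AP000769.2, TUG1, KCNQ1OT1 and OIP5-AS1 were added after their values were seen. Alternatives were other pseudocounts, filters, scalings and fits, a replicate block, Ensembl loci alone, leaving out each library, and, chosen after seeing the data, the sum of rows with the same coordinates.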

Additional observations from a re-analysis of the deposited data

How the results depend on the processing

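NEAT1 kept its direction in both lines under all 16 alternatives. It kept its call in 12 of them in LM3 and 14 in HepG2, the exceptions being libraries left out (0.62 to 0.67 in LM3, 0.88 to 1.07 in HepG2). MALAT1 in LM3 kept its direction in all 16 and its call in 6. It lost the call with a pseudocount of 1 FPKM (0.34), no filter (0.34), quantile normalization (0.37), rescaling outside both genes (0.38), limma without trend or robust fitting (0.34) and a library left out (0.27 to 0.41). MALAT1 in HepG2 passed in none and was −0.11 after quantile normalization, where the cause was not tested. The difference between lines passed for neither gene under 20 alternatives, from −0.43 to −0.12 for NEAT1 and 0.18 to 0.47 for MALAT1. The log2 ratio of NEAT1 to MALAT1 stayed between 0.26 and 0.35 in LM3 and between 0.76 and 1.01 in HepG2.

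The replicate numbers are not stated to pair the libraries, and replicate deviations of JQ1 and vehicle correlated at 0.13 over loci in LM3 and −0.035 in HepG2. With a replicate block, MALAT1 in LM3 (0.34, limma adjusted p = 0.0524) did not pass, no other call of the 2 genes changed, and 1215 loci passed in LM3, 1453 in HepG2 and 0 for the difference.

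The number of loci called in LM3 was 1511 of 6474 tested in the fit reported and 857 of 14050 with no filter. It was 207 of 810 at a mean of at least 5 FPKM and 378 of 2063 with Ensembl loci alone. In HepG2 it was 1480 of 5906, 852 of 14354, 211 of 670 and 430 of 1922 in the same order. The stricter filter and the Ensembl loci alone test fewer loci, and the fit with no filter tests more, so the counts are not alike in base. Without any 1 library, limma called 0 loci in LM3 (1525 to 2365 at an unadjusted p under 0.05), and 0 to 475 in HepG2, with 0 without either JQ1 library (1770 and 1679 unadjusted). For the difference between lines, 11 loci passed in the fit reported, 19 and 7 with pseudocounts of 1 and 0.1 FPKM, 94 with no filter, 20 with centred libraries, 5 after quantile normalization, 5 with Ensembl loci alone and 0 to 3 without 1 library. With 2 libraries per group and no read totals, the spread between libraries alone sets the precision, and a library left alone in its group was assumed to vary like the others.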

Other observations

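In the RefSeq promoter table (GRCh38.p14), MALAT1 has windows of 300 bases at 2 starts. The window at chr11:65497488-65497787 holds GGGCGG, on either strand, 5 times, and the window at chr11:65498795-65499094 holds TATAAA 1 time. Of 35116 promoter windows, 45% hold GGGCGG and 11.5% hold TATAAA. The other motifs searched were in neither MALAT1 window. Among all windows, CCAAT was present in 34.6%, the E-box CACGTG was present in 7.26% and its shorter form ACGTG, which overlaps it, was present in 21.4%. The cyclic AMP response motif TGACGTCA was present in 1.85%, and the heat shock motif GAANNTTC was present in 6.77%. These matches describe letters and not sites of binding.

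Rows with identical coordinates were not limited to NEAT1 and MALAT1. The tables hold 196 pairs of an Ensembl and an LXLOC locus with the same start, end and strand, and LXLOC_008672 was the only LXLOC locus among them with a mean of at least 50 FPKM. Where both rows were tested, the fold changes had the same sign in 28 of 45 pairs in LM3 and 29 of 37 in HepG2. The median absolute difference between the 2 log2 fold changes was 0.248 in LM3 and 0.219 in HepG2. LXLOC_008672 and MALAT1 differed by less than this in both lines (0.32 against 0.34 in LM3, 0.27 against 0.096 in HepG2). So did LXLOC_008668 and NEAT1 in LM3 (0.62 against 0.64), whereas in HepG2 they differed by more (1.24 against 0.98). The LXLOC rows of all other pairs averaged below 50 FPKM, so the medians are not matched in level to the MALAT1 pair.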
